A study of Mus musculus with 12 samples.

Results

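The machinery that releases neurotransmitter from synaptic vesicles was measured as 33 genes among the 22180 genes tested in the cerebellum of Ciz1 knockout and control mice. The 33 genes encode the SNARE proteins and the factors that recycle them, the calcium sensors, the complexins, the priming factors, the scaffolds of the active zone, the proteins of the vesicle membrane and 2 vesicular glutamate transporters. They were chosen by gene symbol. A row of the array counted for a gene when that symbol was its only one, and the brightest such row was used. All 33 had a row, and no gene was removed for low brightness. Ciz1 encodes a nuclear protein with roles in DNA replication and in holding Xist RNA on the inactive X chromosome.

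Total RNA from cerebellum was hybridised to 12 Affymetrix arrays, 1 per mouse, with 3 mice in each of the groups KO_male, WT_male, KO_female and WT_female. The KO mice were Ciz1-/-, which the series title describes as a germline deficiency. The controls are wild type in the source names and Ciz1+/+ in the protocol, but their genotype field reads Ciz1+/-. The mice were 10 months old according to the protocol and 6 to 10 months old according to the design text. The sources used here do not state how the allele was made or the strain. Values are log2 of the deposited intensities, and a difference is KO minus WT on that scale unless stated. Expression levels were not compared between genes, because each row has its own probes. Brightness, where given, describes the row.

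The labels were checked with Ciz1, which lay between 6.82 and 7.31 in the 6 KO arrays and between 8.70 and 8.90 in the 6 WT arrays. Markers of the cerebellum and of other cell types were set against the labels. The mean level of 12 granule cell markers was 10.79 to 10.94 in KO and 10.83 to 10.88 in WT (smallest p for Etv1 at 0.15 and Calb2 at 0.10). That of 9 measured Purkinje cell markers was 10.37 to 10.58 in KO and 10.36 to 10.48 in WT (Ppp1r17 at 0.11, Lhx1 at -0.09). All 13 measured oligodendrocyte markers were lower on average in KO, with a mean level of 8.58 to 9.02 in KO and 8.88 to 9.09 in WT. Of these Opalin passed at -0.45 (limma adjusted p = 0.037) and Mal, at -0.36, did not (adjusted p = 0.154). All 11 measured choroid plexus markers were lower on average too, with a wide mean level of 6.51 to 7.73 in KO and 6.76 to 8.11 in WT, and none passed (Slco1a5 at -0.26, Folr1 at -0.36). Of 10 pan-neuronal markers 6 were higher and 4 lower on average in KO (Nefl at -0.27, Stmn2 at 0.07). Of 12 Bergmann glia and astrocyte markers 3 were higher and 9 lower (Vim at -0.13, Aqp4 at -0.17). None of these passed. No marker was at 0 in any array. In tissue of mixed cells, fewer cells of a type and less RNA per cell cannot be told apart.

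Release of a vesicle is driven by a bundle of SNARE proteins, in which synaptobrevin on the vesicle pairs with syntaxin and SNAP-25 on the plasma membrane. Priming factors of the Munc13 family and the RIM scaffolds prepare docked vesicles, complexins hold the primed state, and synaptotagmins trigger fusion when calcium enters. NSF and its SNAP adaptors then take the spent bundles apart. In the cerebellum the most numerous synapses are those of granule cell parallel fibres onto Purkinje cells, which load glutamate mainly with VGLUT1, while the excitatory neurons of the deep nuclei use VGLUT2.

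The release machinery showed small differences between KO and WT cerebellum, apart from 1 variable gene, Slc17a6. In the comparison over both sexes 0 of 33 genes passed the threshold (limma, adjusted p under 0.05), where 0.0225% of all genes did. With p under 0.05 before adjustment were 4 of 33 genes (12.1%), beside 9.26% of all genes. Of these 1 was higher, beside 4.38% of all genes, and 3 were lower, beside 4.87%. The median difference of the 33 genes was 0.0063, and that of all genes was -0.00072. In KO 18 genes were higher (54.5%), beside 49.6% of all genes, and 15 were lower. The 4 genes with the smallest p were Unc13a, Slc17a6, Stx1a and Sv2a. The other 29 differed by -0.10 to 0.11, with adjusted p from 0.549 to 0.997. The 95% interval of the difference, which is not adjusted for the number of genes, lay within 0.3 of 0 (a fold of 1.23) for 31 of 33 genes and within 0.2 (a fold of 1.15) for 21 of 33. For all genes these shares were 82% and 50.5%, beside 93.9% and 63.6% of the 33.

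**Figure D1:**
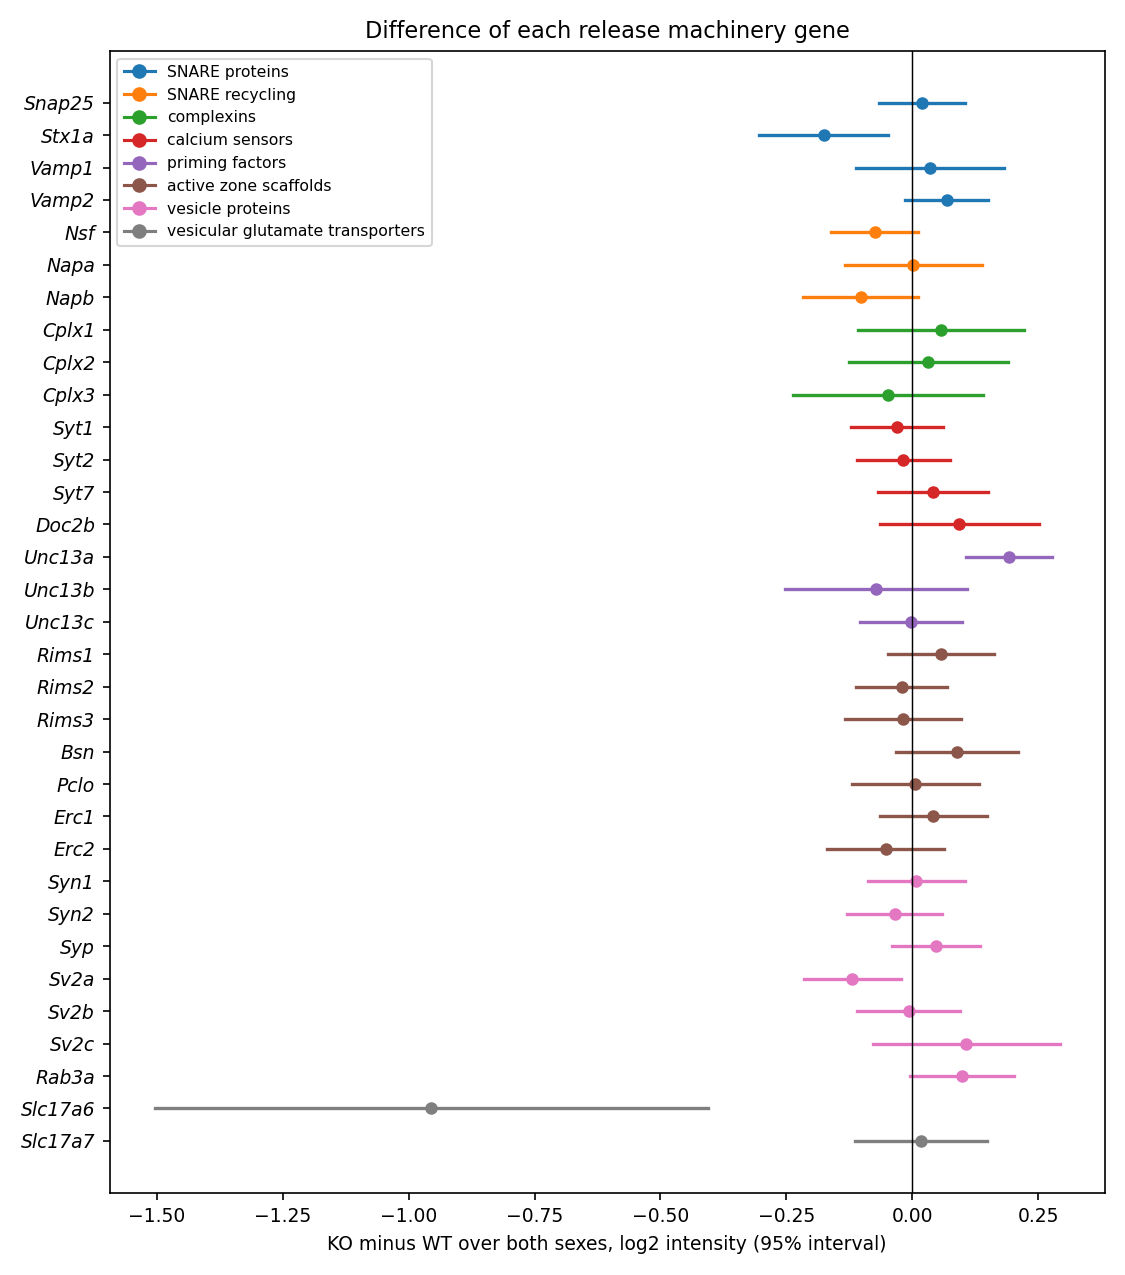
Difference of each of the 33 genes between KO and WT over both sexes, in log2 intensity (x axis), with its unadjusted 95% interval from limma (bars), coloured by role. The difference of Slc17a6 is -0.95, that of Unc13a is 0.19, and the 29 genes other than Unc13a, Slc17a6, Stx1a and Sv2a lie between -0.10 and 0.11.

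The genes were measured with little spread. The SD within groups had a median of 0.078 over the 33 genes and 0.111 over all genes. Most of the 33 had rows that were bright among those of all genes. Neither the SD nor the interval shares above were compared with genes of like brightness. Vamp2 (0.036), Unc13a (0.043) and Snap25 (0.044) varied least among them. Slc17a6 varied most, with an SD of 0.52, which was higher than that of 99.8% of all genes. After it came Cplx3 (0.17), Sv2c (0.16), Unc13b (0.16) and Cplx1 (0.14).

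**Figure D2:**
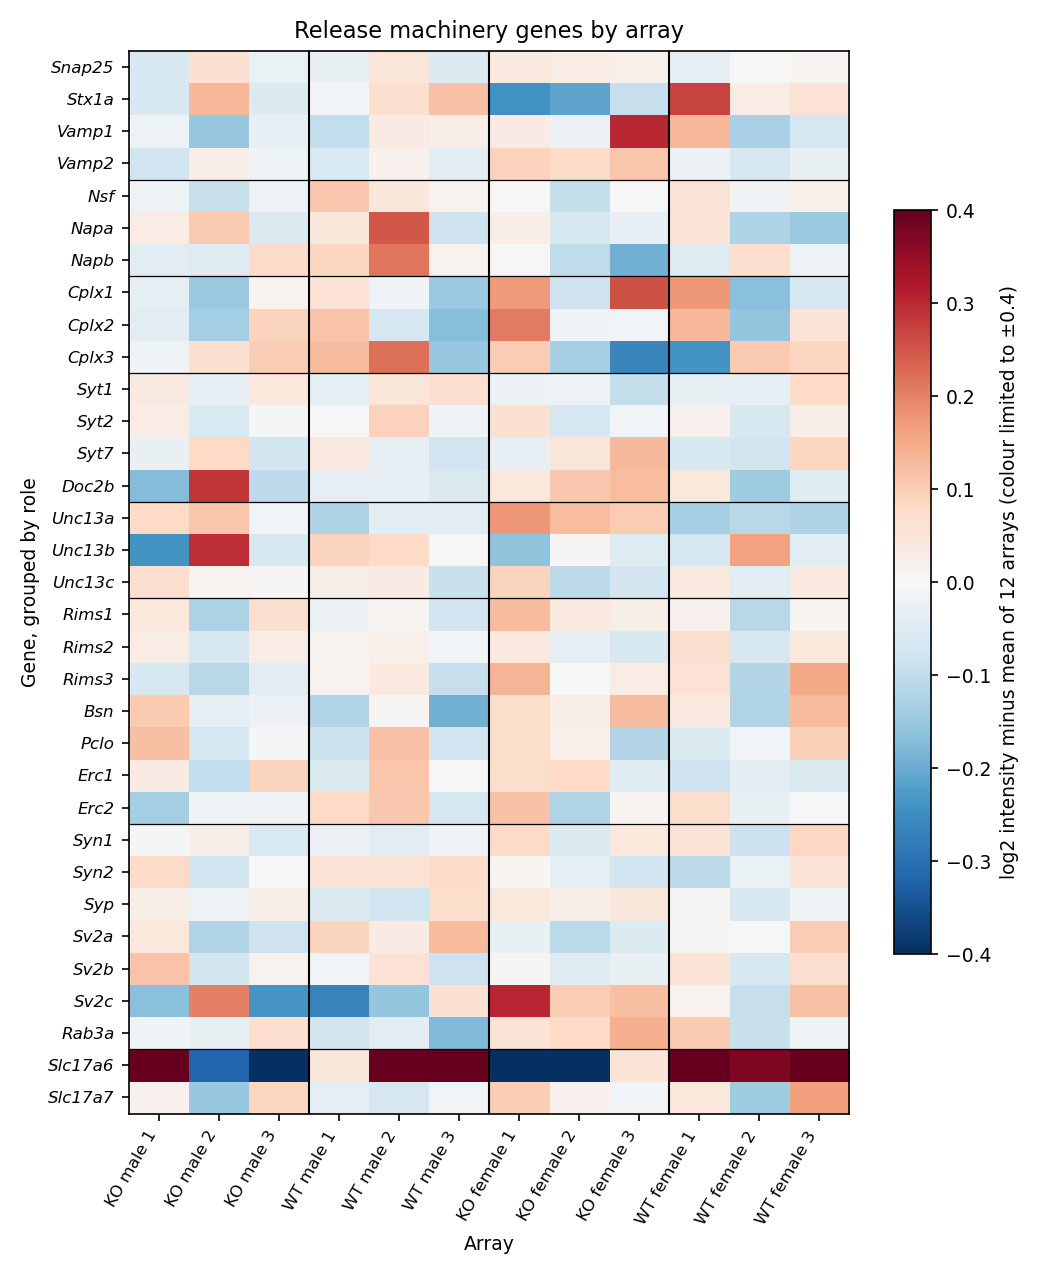
Level of the 33 genes (rows, grouped by role) in each of the 12 arrays (columns), as log2 intensity minus the gene's mean over the 12 arrays, with the colour limited to 0.4 on either side. Unc13a is the 1 row in which all 6 KO arrays lie above all 6 WT arrays, and Slc17a6 is the row with the widest range.

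Of the 4 SNARE proteins, 3 were higher and 1 lower on average in KO. Snap25 encodes the SNARE of the plasma membrane that botulinum toxin A cleaves. It averaged 13.37 ± 0.05 in KO and 13.35 ± 0.04 in WT (SD, n = 6 each), a difference of 0.02 with an interval from -0.07 to 0.11. Vamp1 encodes synaptobrevin 1, a vesicle SNARE of brainstem and spinal cord neurons above all. It read 10.74, 10.69 and 11.02 in KO_female and 10.85, 10.58 and 10.64 in WT_female. It read 10.69, 10.56 and 10.68 in KO_male and 10.62, 10.75 and 10.74 in WT_male. The groups overlapped in both sexes, KO_female replicate 3 was highest, and the difference over both sexes was 0.03.

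Vamp2, the synaptobrevin of most central synapses, read 10.57, 10.56 and 10.59 in KO_female and 10.46, 10.42 and 10.45 in WT_female. It read 10.40, 10.51 and 10.46 in KO_male and 10.42, 10.50 and 10.44 in WT_male. All KO_female arrays lay above all other arrays, while the male groups overlapped. The difference was 0.13 in females (SE 0.05; limma adjusted p = 0.539) and 0.01 in males (adjusted p = 0.996). The interaction, which is the female difference minus the male one, was 0.13 (SE 0.07; adjusted p = 0.998).

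Stx1a encodes syntaxin 1A, the partner of SNAP-25 in the plasma membrane. It read 5.78, 5.82 and 5.94 in KO_female and 6.30, 6.06 and 6.08 in WT_female. It read 5.96, 6.16 and 5.97 in KO_male and 6.01, 6.09 and 6.14 in WT_male. The female groups did not overlap and the male groups did. The difference was -0.30 in females (SE 0.08; limma adjusted p = 0.408) and -0.05 in males (SE 0.08; adjusted p = 0.977), and over both sexes -0.18 (SE 0.06; adjusted p = 0.438). The interaction was -0.25 (SE 0.12; adjusted p = 0.998). The Stx1a row was at percentile 31.5 of brightness among all genes. Before log2 it read 55.1 to 78.7, below the array medians of 96.5 to 98.7. The files hold no measure of background, so whether the Stx1a row lies above it was not tested.

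The factors that recycle SNARE bundles were lower on average in KO in 2 of 3 cases, and none passed. Nsf, the ATPase that pulls the bundles apart, read 11.12, 11.06 and 11.12 in KO_male and 11.25, 11.19 and 11.16 in WT_male. It read 11.14, 11.05 and 11.15 in KO_female and 11.20, 11.13 and 11.16 in WT_female. The male groups did not overlap and the female groups did, and the male difference was -0.10 (SE 0.06; limma adjusted p = 0.924). Over both sexes Nsf differed by -0.07, with an interval from -0.16 to 0.01. Napb, an adaptor of NSF found mainly in brain, differed by -0.10 (-0.22 to 0.01), and its widely expressed relative Napa by 0.00 (-0.13 to 0.14).

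The complexins, small proteins that bind assembled SNARE bundles, were not shown to differ. Cplx1 averaged 10.62 ± 0.16 in KO and 10.56 ± 0.13 in WT (SD, n = 6 each), and Cplx2 9.73 ± 0.12 in KO and 9.70 ± 0.13 in WT. Cplx3, known best from the ribbon synapses of the retina, averaged 6.47 ± 0.15 in KO and 6.52 ± 0.18 in WT. Their intervals reached from -0.24 to 0.22 in all.

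The 4 calcium sensors were 2 higher and 2 lower on average. Syt1, the sensor for fast release in much of the brain, read from 12.09 to 12.23 in KO and from 12.14 to 12.26 in WT, and differed by -0.03 (-0.12 to 0.06). Syt2, a fast sensor of hindbrain and cerebellar synapses, differed by -0.02 (-0.11 to 0.07). Syt7, which supports slower release, differed by 0.04 (-0.07 to 0.15). Doc2b, a sensor with high calcium affinity linked to spontaneous release, differed by 0.09 (-0.06 to 0.25), and KO_male replicate 2 was its highest array at 9.40.

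Of the 3 priming factors, 1 was higher and 2 were lower on average in KO. Unc13a encodes Munc13-1, which opens syntaxin and makes docked vesicles ready for release in most excitatory synapses. It read 10.02, 10.05 and 9.93 in KO_male and 9.82, 9.90 and 9.90 in WT_male. It read 10.11, 10.06 and 10.04 in KO_female and 9.81, 9.83 and 9.82 in WT_female. Every KO array lay above every WT array. Over both sexes 1 of 33 genes (3.03%) had groups without overlap in either direction, beside 0.55% of all genes. In this direction alone the share of all genes was 0.32%.

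The Unc13a difference over both sexes was 0.19 (SE 0.04, interval 0.11 to 0.28), a fold of 1.14. It did not pass (limma adjusted p = 0.229). When the prior spread was allowed to follow brightness, the same difference passed (adjusted p = 0.0341), and 0.0812% of all genes passed with that setting. The difference was 0.26 in females (SE 0.06; adjusted p = 0.253) and 0.13 in males (SE 0.06; adjusted p = 0.891). With the intensity trend the female difference passed too (adjusted p = 0.0464), beside 0.117% of all genes. The interaction was 0.12 (SE 0.08; adjusted p = 0.998). Across all alternative settings and left-out arrays the difference over both sexes stayed between 0.18 and 0.21, with adjusted p from 0.0341 to 0.665. The highest p came with the oligodendrocyte level as a covariate, where the difference was 0.19 (SE 0.07). That level was itself lower in KO, so this fit cannot separate it from genotype.

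The other Munc13 genes had differences near or below 0. Unc13c encodes Munc13-3, a form largely restricted to the cerebellum. It averaged 10.96 ± 0.08 in KO and 10.97 ± 0.05 in WT (SD, n = 6 each), a difference of -0.00 with an interval from -0.10 to 0.10. Unc13b, which encodes Munc13-2, averaged 6.94 ± 0.18 in KO and 7.01 ± 0.09 in WT (SD, n = 6 each), with an interval from -0.25 to 0.11. Whether the Unc13a difference is unlike those of Unc13b and Unc13c was not tested.

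The scaffolds of the active zone, where vesicles dock, all differed by less than 0.1. Rims1 and Rims2 encode RIM proteins that tether vesicles and calcium channels, and differed by 0.06 (-0.05 to 0.16) and -0.02 (-0.11 to 0.07). Rims3, a short RIM form, differed by -0.02. The giant scaffolds bassoon (Bsn) and piccolo (Pclo) differed by 0.09 (-0.03 to 0.21) and 0.01 (-0.12 to 0.13). Bsn had a second, dimmer row, whose difference was -0.01. Erc1 and Erc2, of the ELKS family, differed by 0.04 and -0.05. Of the 7 scaffolds 4 were higher and 3 lower, and 0 had an unadjusted p under 0.05.

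Among the vesicle proteins, Sv2a had the largest difference relative to its error. Sv2a encodes the vesicle glycoprotein that is the target of the antiepileptic drug levetiracetam. It read 11.13, 10.97 and 11.01 in KO_male and 11.18, 11.12 and 11.22 in WT_male. It read 11.06, 10.98 and 11.04 in KO_female and 11.10, 11.09 and 11.19 in WT_female. The female groups did not overlap, and in males KO_male replicate 1 lay within the WT range. The difference over both sexes was -0.12 (SE 0.04; limma adjusted p = 0.480). In males it was -0.14 (SE 0.06; adjusted p = 0.910) and in females -0.10 (SE 0.06; adjusted p = 0.697). With the oligodendrocyte marker level as a covariate the difference over both sexes was -0.04 (SE 0.07; adjusted p = 0.948). That marker level was itself lower in KO, so this fit cannot separate it from genotype.

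The relatives of Sv2a differed less or varied more. Sv2b differed by -0.01 (-0.11 to 0.10). Sv2c, whose protein is found in few brain regions, averaged 9.36 ± 0.21 in KO and 9.25 ± 0.14 in WT (SD, n = 6 each). Rab3a, the GTPase that guides vesicles to the active zone, read 10.83, 10.82 and 10.92 in KO_male and 10.78, 10.80 and 10.67 in WT_male, groups that did not overlap. It read 10.90, 10.93 and 10.99 in KO_female and 10.95, 10.76 and 10.83 in WT_female, groups that did. Over both sexes it differed by 0.10 (-0.00 to 0.20; limma adjusted p = 0.549). Syn2, a synapsin that clusters vesicles in reserve, differed by -0.03 (-0.13 to 0.06).

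Syn1 and Syp, the synapsin 1 and synaptophysin genes, are the members on the X chromosome. Syn1 read 10.11, 9.97 and 10.07 in KO_female and 10.08, 9.94 and 10.11 in WT_female. It read 10.02, 10.05 and 9.97 in KO_male and 10.01, 9.99 and 10.02 in WT_male. The groups overlapped in both sexes. Its difference was 0.00 in females and 0.01 in males (limma adjusted p = 0.990 and 0.994). Syp read 10.98, 10.96 and 10.99 in KO_female and 10.95, 10.88 and 10.92 in WT_female, without overlap. It read 10.97, 10.92 and 10.97 in KO_male and 10.88, 10.86 and 11.01 in WT_male, with overlap. The Syp difference was 0.06 in females (SE 0.06, limma adjusted p = 0.800) and 0.03 in males. In females it ranged from 0.04 to 0.15 over the alternative settings and left-out arrays. Syp had a second, dimmer row, whose difference was 0.15 in females and -0.05 in males. Between females and males Syn1 differed by 0.04 (-0.06 to 0.14) and Syp by 0.01 (-0.08 to 0.10).

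The 2 vesicular glutamate transporters had unlike values, a contrast that was not itself tested. Slc17a7 encodes VGLUT1, the transporter of granule cells. It averaged 10.53 ± 0.09 in KO and 10.51 ± 0.11 in WT (SD, n = 6 each), a difference of 0.02 with an interval from -0.11 to 0.15. Slc17a6 encodes VGLUT2, which in adult cerebellar tissue is transcribed in deep nuclear neurons and in some unipolar brush cells. The climbing fibre terminals that carry VGLUT2 protein have their cell bodies in the brainstem.

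Slc17a6 read 7.51, 6.71 and 6.17 in KO_male and 7.07, 7.43 and 7.81 in WT_male. It read 5.86, 5.95 and 7.08 in KO_female and 7.55, 7.40 and 7.76 in WT_female. The female groups did not overlap, the male groups did, and 1 KO array of each sex lay within the range of the 6 WT arrays. The difference over both sexes was -0.95 (SE 0.25, interval -1.50 to -0.41), a fold of 0.516. It was the difference of largest size among the 33 genes, and it did not pass (limma adjusted p = 0.318). In females it was -1.27 (SE 0.36; adjusted p = 0.420) and in males -0.64 (SE 0.36; adjusted p = 0.924). The male value was -0.995 without KO_male replicate 1 and -0.33 without KO_male replicate 3. The interaction was -0.63 (SE 0.50; adjusted p = 0.999). It was -0.28 without KO_male replicate 1, -1.02 without KO_female replicate 3, -0.41 without KO_female replicate 1 and -0.02 with the oligodendrocyte covariate. Before log2, Slc17a6 read 57.9 and 62.0 in KO_female replicates 1 and 2 and 72.2 in KO_male replicate 3. These lay below the array medians of 96.5 to 98.7, and its other arrays lay above them. With 16 added to each intensity before log2, the Slc17a6 difference over both sexes was -0.835 (SE 0.20). Its SD was 0.67 in KO_male, 0.68 in KO_female, 0.37 in WT_male and 0.18 in WT_female, while the fit shares 1 spread.

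**Figure D3:**
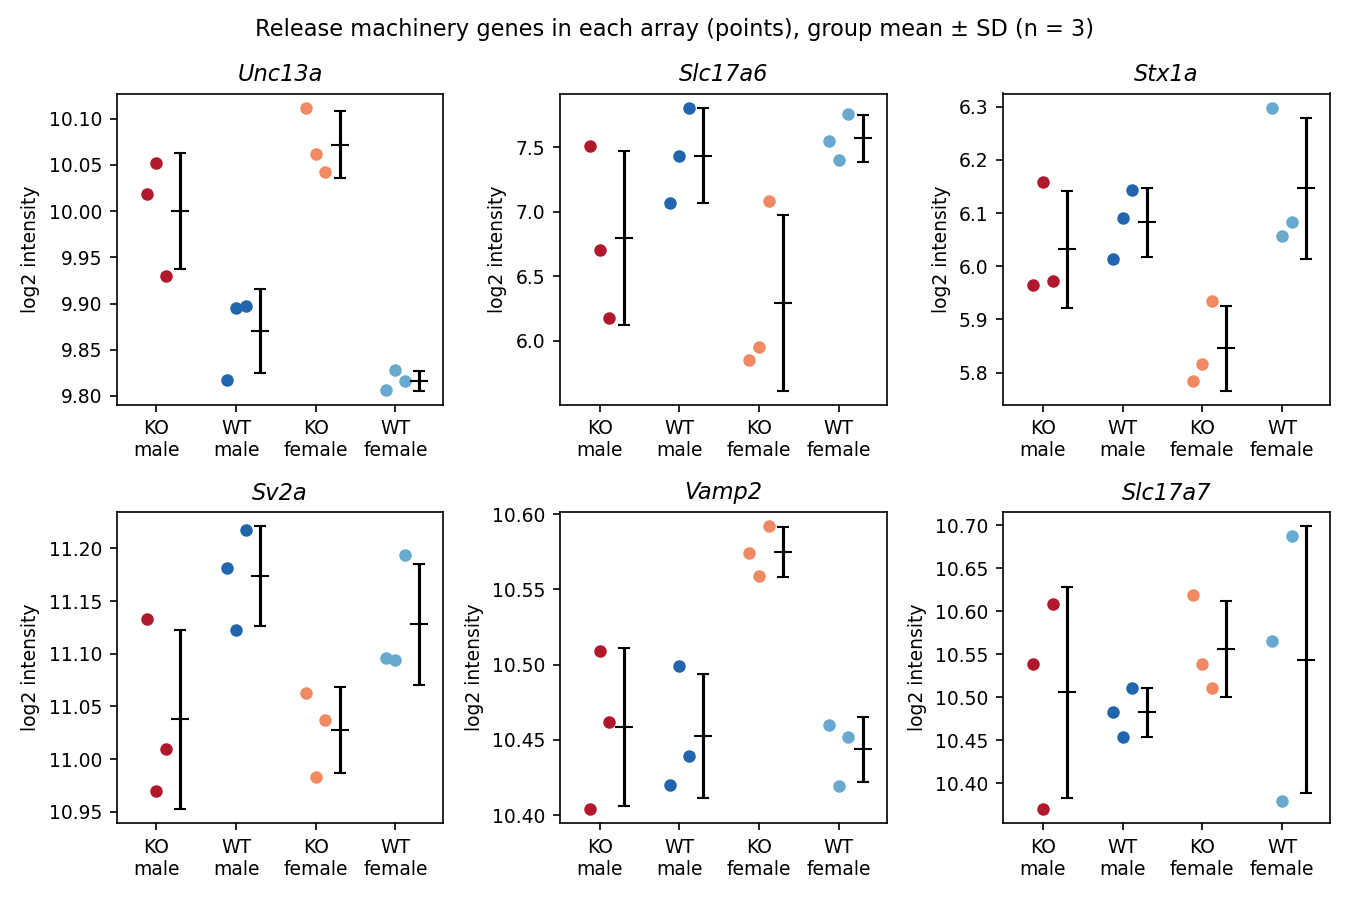
Log2 intensity (y axes, each with its own range) of 6 release machinery genes in each array, by group, with the group mean and SD beside the points (n = 3). The KO arrays of Unc13a lie between 9.93 and 10.11 and the WT arrays between 9.81 and 9.90, while the KO arrays of Slc17a6 spread from 5.86 to 7.51.

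Slc17a6 moved across arrays with the oligodendrocyte markers. Its level and the mean of 13 oligodendrocyte markers had a Pearson r of 0.84 (permutation p = 0.00137, adjusted p = 0.0151) and a Spearman rho of 0.90 (permutation p = 0.00019, adjusted p = 0.00209) over the 12 arrays. These p-values are two-sided and adjusted over the 11 marker lists compared, a comparison chosen after the values were seen. The permutations ignored the 4 groups, so group differences shared by both measures can produce such r and p. Without the 2 arrays farthest from the median marker level r was 0.69. Because both measures were lower in KO on average, r was also taken within each genotype. It was 0.66 among the 6 KO arrays and 0.70 among the 6 WT arrays. No p was computed for these, and each genotype still holds both sexes. No other list passed. For 6 further markers of deep nuclei and unipolar brush cells r was 0.53 (adjusted p = 0.276), with 0.89 within KO and -0.23 within WT. That list shares Calb2 with the granule cell list and Pvalb with the list of inhibitory interneurons. For choroid plexus markers r was 0.09. For hindbrain and brainstem markers, of which Hoxa5 (-0.17) and Tph2 (-0.16) had the smallest p for genotype, it was 0.39.

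With the oligodendrocyte marker level as a covariate the difference of Slc17a6 over both sexes was -0.28 (SE 0.36; limma adjusted p = 0.921). It was then -0.29 in females and -0.27 in males. That marker level was itself lower in KO on average. In males the groups overlapped, at 8.645 to 9.02 in KO_male and 8.88 to 9.05 in WT_male. In females they did not, at 8.58 to 8.69 in KO_female and 8.93 to 9.09 in WT_female. The fit therefore cannot separate the marker level from genotype. In females 0 of the 22180 genes, Ciz1 included, passed with this covariate. With the hindbrain and brainstem level as a covariate the difference was -0.87, and with the choroid plexus level -1.06. Among the 6 further markers of deep nuclei and unipolar brush cells, 2 were lower in KO and 4 higher. Lower were Meis2, a homeobox transcription factor, at -0.46 (SE 0.14, limma adjusted p = 0.398), and Tbr1 at -0.02. Higher were Eomes, a transcription factor of unipolar brush cells, at 0.15 (SE 0.05, limma adjusted p = 0.438), and Lmx1a at 0.09. Calb2 at 0.10 and Pvalb at 0.05, which are shared with other lists, were higher too. The part of oligodendrocyte content or of the dissected region in the Slc17a6 values was not tested.

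**Figure D4:**
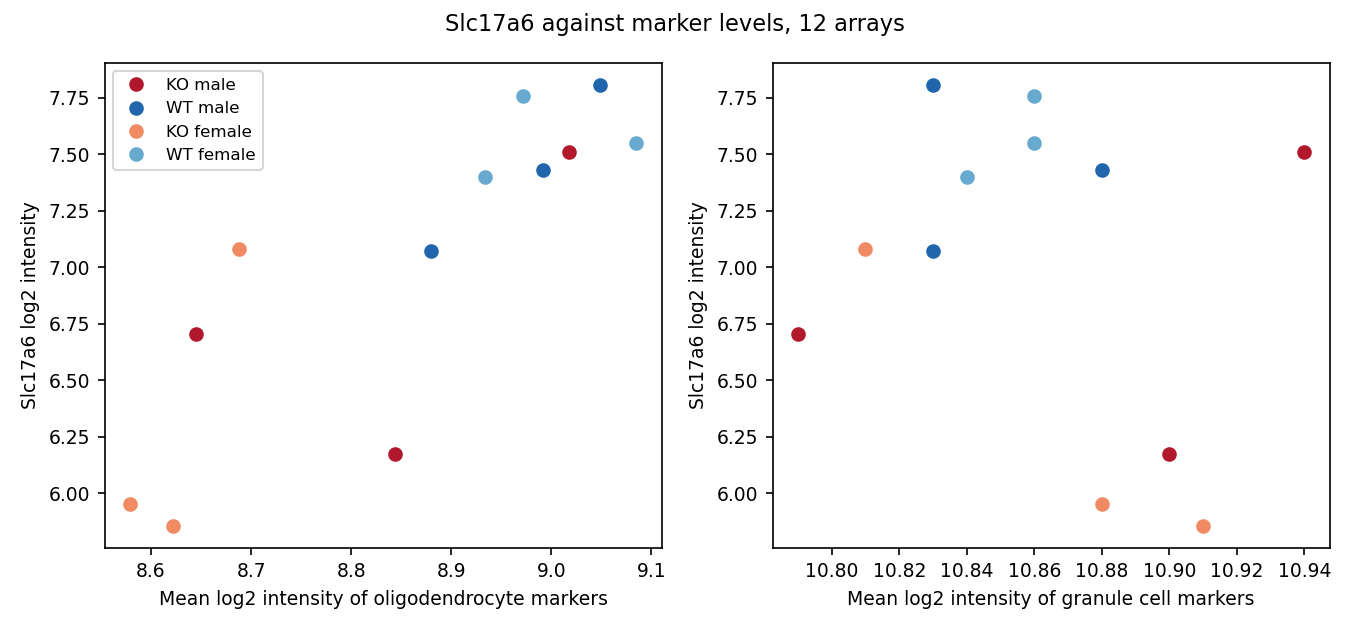
Slc17a6 log2 intensity (y axis) against the mean log2 intensity of oligodendrocyte markers (left) and granule cell markers (right) in the 12 arrays, coloured by group. The left panel has r = 0.84 and the right panel r = -0.26.

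The regions upstream of 4 members are shown. They are those of Unc13a, whose KO arrays all lay above its WT arrays, of both glutamate transporters and of the X-linked Syn1. Each is the 250 bases before the annotated start from RefSeq (build GRCm38.p6), written 5′ to 3′ on the gene's strand. Capitals mark the GC box GGGCGG, the CRE core TGACG and the left part of the RE1 element, TTCAGCACC, on either strand. The windows are chr8:71671758-71672007 on the minus strand for Unc13a, chr7:51621580-51621829 on the plus strand for Slc17a6, chr7:45163671-45163920 on the plus strand for Slc17a7 and chrX:20920919-20921168 on the minus strand for Syn1. For Slc17a6, which has more than 1 listed start, the one listed first is shown.
Unc13a: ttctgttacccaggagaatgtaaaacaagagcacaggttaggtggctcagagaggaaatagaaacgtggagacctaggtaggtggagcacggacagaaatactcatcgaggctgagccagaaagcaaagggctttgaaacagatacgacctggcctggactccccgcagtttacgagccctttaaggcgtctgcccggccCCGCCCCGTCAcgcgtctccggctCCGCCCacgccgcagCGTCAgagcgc
Slc17a6: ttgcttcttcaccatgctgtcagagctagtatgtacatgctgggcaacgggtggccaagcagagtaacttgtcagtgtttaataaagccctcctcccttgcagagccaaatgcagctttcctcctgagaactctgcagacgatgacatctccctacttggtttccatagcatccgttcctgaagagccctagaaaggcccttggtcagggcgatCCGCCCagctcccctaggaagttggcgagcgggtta
Slc17a7: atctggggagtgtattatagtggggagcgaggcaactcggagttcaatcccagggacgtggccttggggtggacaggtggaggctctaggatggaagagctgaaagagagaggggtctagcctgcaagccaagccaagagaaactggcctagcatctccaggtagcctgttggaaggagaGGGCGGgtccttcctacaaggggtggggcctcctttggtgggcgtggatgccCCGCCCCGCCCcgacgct
Syn1: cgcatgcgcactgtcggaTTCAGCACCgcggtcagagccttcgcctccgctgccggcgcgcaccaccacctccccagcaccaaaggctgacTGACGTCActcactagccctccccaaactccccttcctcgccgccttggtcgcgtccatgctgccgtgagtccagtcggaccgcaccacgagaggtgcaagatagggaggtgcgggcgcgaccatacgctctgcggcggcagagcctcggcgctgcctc

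Upstream windows were listed for 28 of the 33 members, 36 windows in all. The Unc13a window holds GC boxes at positions -50 and -26 and CRE cores at -44 and -11, where -1 is the base before the start. The Slc17a6 window holds 1 GC box, at -36, and the Slc17a7 window 3, at -70, -18 and -13, the last of which overlap by 1 base. The Syn1 window holds the left RE1 part at -232 and a full CRE (TGACGTCA) at -159, whose overlapping cores start at -159 and -156.

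Of the 28 members 20 had a GC box in at least 1 window, and 21 of their 36 windows held it, beside 32.7% of the 32851 windows of all genes. A CRE core, which the full CRE contains, was in 8 of 36 windows, beside 17.8% of all. The full CRE was in 1 (1.55% of all) and the left RE1 part in 1 (0.301% of all), both Syn1. The right RE1 part GGACAGC was in 0 (5.28% of all), the E-box CACGTG in 5 (6.02%), TATAAA in 2 (12.4%) and CCAAT in 10 (33.8%). Windows of members had a median GC content of 61.2%, beside 52.4% for all windows. A match of letters is a description of the window and not a bound site.

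Within males 0 of 33 genes passed (limma, adjusted p under 0.05), beside 0.0225% of all genes. With p under 0.05 before adjustment were 2 (6.06%), Sv2a and Unc13a, beside 5.42% of all genes. The KO_male and WT_male arrays did not overlap for 3 of 33 genes (9.09%): Unc13a, Rab3a and Nsf, beside 10.3% of all genes. The median difference was -0.0077 over the 33 genes and -0.0045 over all genes.

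Within females 0 of 33 passed, beside 0.0225% of all genes. With p under 0.05 before adjustment were 4 (12.1%), beside 8.49% of all genes. Unc13a and Vamp2 were higher, beside 4.52% of all genes, and Stx1a and Slc17a6 lower, beside 3.98%. The KO_female and WT_female arrays did not overlap for 8 of 33 genes (24.2%), beside 14.9% of all genes. Of these Snap25, Vamp2, Syp, Unc13a and Rims1 were higher (7.46% of all genes) and Stx1a, Sv2a and Slc17a6 lower (7.41%). The median difference was 0.012 over the 33 genes and 0.0016 over all genes.

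**Figure D5:**
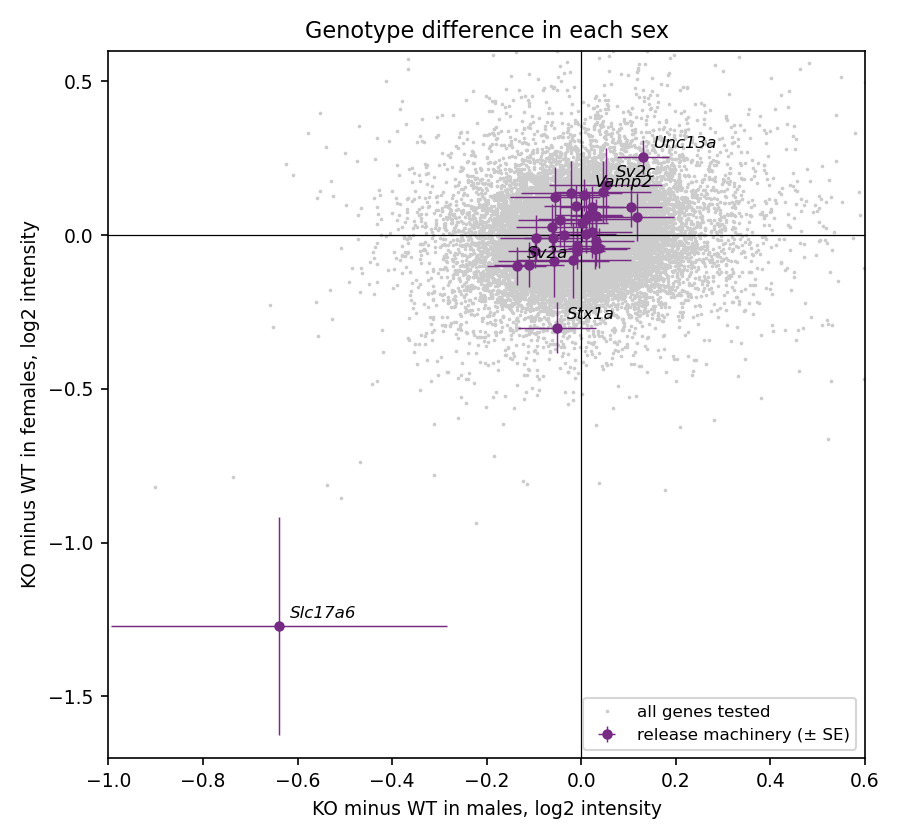
Difference between KO and WT in males (x axis) and in females (y axis), in log2 intensity, for the 33 genes (purple, with SE) and all genes tested (grey, with genes beyond the axes not drawn). Most of the 33 lie near the centre, Unc13a lies at 0.13 and 0.26, and Slc17a6 lies at -0.64 and -1.27.

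The 2 sexes share no arrays in these comparisons. The direction was the same in both for 24 of 33 genes (72.7%), 13 higher and 11 lower in KO, beside 56.1% of all genes. The 33 genes were measured in the same mice and are not independent of each other, and these shares were not tested. For the difference of the genotype effect between the sexes 0 of 33 genes passed (limma), beside 0% of all genes. With p under 0.05 before adjustment were 0, beside 4.82% of all genes. The unadjusted 95% interval of this difference lay within 0.3 of 0 for 18 of 33 genes and within 0.2 for 1. For all genes these shares were 28.5% and 2.6%, beside 54.5% and 3.03% of the 33. The smallest p belonged to Stx1a, then Vamp2, Unc13a and Vamp1. Vamp1 differed by 0.13 in females and -0.06 in males, an interaction of 0.18 (SE 0.13; adjusted p = 0.999). Without KO_female replicate 3 that value was 0.08, and with the oligodendrocyte covariate 0.35.

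Between females and males, over both genotypes, 0 of 33 genes passed (limma), beside 0.0361% of all genes. With p under 0.05 before adjustment was 1 (3.03%), Sv2c, beside 7.93% of all genes. The 6 female and 6 male arrays overlapped for every member, while 0.469% of all genes had no overlap. Sv2c read 9.61, 9.40 and 9.42 in KO_female and 9.13, 9.50 and 9.07 in KO_male. It read 9.32, 9.21 and 9.42 in WT_female and 9.04, 9.15 and 9.36 in WT_male. The sexes overlapped in both genotypes, and the difference of females minus males was 0.19 (SE 0.08; limma adjusted p = 0.628).

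Next in order of p were Rab3a, Napb and Rims3. Rab3a, whose arrays are given above, had a median of 10.92 in females and 10.81 in males, a difference of 0.09 (SE 0.05). Napb read 10.78, 10.67 and 10.58 in KO_female and 10.73, 10.72 and 10.85 in KO_male. It read 10.72, 10.84 and 10.75 in WT_female and 10.86, 10.98 and 10.79 in WT_male, and the difference of females minus males was -0.10 (SE 0.05). Rims3 read 9.23, 9.09 and 9.12 in KO_female and 9.03, 8.98 and 9.04 in KO_male, without overlap. The share of all genes without overlap between these groups was not counted.

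In the other genotype Rims3 read 9.15, 8.97 and 9.24 in WT_female and 9.11, 9.13 and 8.998 in WT_male, with overlap. Its difference of females minus males was 0.09 (SE 0.05), and 0.06 without WT_female replicate 3. None of the 3 passed (limma adjusted p from 0.669 to 0.714).

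Of the further genes around vesicle release, 101 on 5 lists, 94 could be tested, and 0 passed in the comparison over both sexes (limma). With p under 0.05 before adjustment were 10 of the 94, 3 higher and 7 lower in KO, beside 9.26% of all genes. Other SNARE and regulatory proteins had 9 higher and 8 lower, with Stxbp3, a Munc18 form of many tissues, at -0.14 (SE 0.05) and Cplx4, a retinal complexin, at 0.16 (SE 0.10). Other synaptotagmins and calcium-dependent factors had 8 higher and 7 lower, with Syt4 at -0.10 (SE 0.04) and Baiap3, a Munc13 relative of dense core vesicles, at -0.10 (SE 0.04). None of these 4 passed (adjusted p from 0.492 to 0.645).

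Other active zone and presynaptic membrane proteins had 7 higher and 11 lower. Among them Ppfia3, which encodes the scaffold liprin-alpha-3, was at 0.14 (SE 0.05), and Lin7a, an adaptor, at 0.07 (SE 0.04). Other vesicle proteins and transporters had 7 higher and 15 lower, with Rab3c, a relative of Rab3a, at 0.13 (SE 0.05) and Slc18a2, the monoamine transporter, at -0.17 (SE 0.07). Genes of vesicle endocytosis had 10 higher and 12 lower, with Sh3gl1, an endophilin, at 0.13 (SE 0.05) and Ston2, the adaptor stonin 2, at -0.14 (SE 0.06). None of these 6 passed (limma adjusted p from 0.438 to 0.617). Median differences of the 5 lists lay between -0.014 and 0.0065.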

How the data were processed

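The authors deposited RMA intensity values of 12 arrays on a linear scale, 1 array per mouse, made with Affymetrix Expression Console at the core-exon level, per the labels. The submitters' processing notes also list Transcriptome Analysis Console 3.0. The genome build of the array annotation is not given in the sources used here. Of 41345 rows, 23521 had 1 gene symbol, 1814 several and 16010 none. Log2 was taken with no pseudocount and no further normalization, and array medians were 96.5 to 98.7 before it. Genes were tested with limma 3.58.1 in R 4.3.3: a mean for each of the 4 groups, a spread shared over the 12 arrays, eBayes, two-sided tests and Benjamini-Hochberg adjustment over 22180 genes within each of 5 contrasts, with a threshold of 0.05. The fit was tested on simulated data. Groups came from the source names, and replicate numbers only name arrays. Values of every array are given for the 4 members with the smallest p in each contrast, and for X-linked members; of each list of further genes, and of each marker list whose levels or differences are described, the 2 with the smallest p are named. Eomes was named after its values were seen. Other arrays and members singled out were chosen after their values were seen. The members and gene lists were chosen with earlier results of these data known. Vamp1 also shares a row with another gene, which was not used here. The number of arrays limits the precision.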

Additional observations from a re-analysis of the deposited data

Results flagged for a closer look

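Each of the 33 genes was checked for a single array apart from the others among the 6 arrays of a genotype, 66 checks in all, of which chance alone would mark about 1 in 20. Syp in KO_male replicate 2 was marked. It read 10.921 there, while the other KO arrays lay between 10.96 and 10.99, so that the gap below the next array made up 0.656 of the KO range, above Dixon's critical value for 6 samples. Without that array the Syp difference between KO and WT over both sexes was 0.05 (SE 0.04; limma adjusted p = 0.734), beside 0.05 with it.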

How the results depend on the processing

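The counts of genes past the threshold, the median difference over both sexes and the differences of the genes with the smallest p in each contrast, of Syn1 over both sexes and in females, of Syp over both sexes and in each sex, and of Slc17a6 in the interaction were recomputed under 23 alternatives, 12 of which left out 1 array each; correlations, counts of non-overlap or shared direction, intervals and the further lists were not. The intensity trend combined with robust hyperparameters was chosen after seeing the data. Over both sexes and in females, the number of genes past the threshold was 1, Unc13a, with an intensity trend and with that trend combined with robust hyperparameters (over both sexes adjusted p = 0.0341 and 0.0342, in females 0.0464 and 0.0421), and 0 under the other 21. For males, the interaction and sex it was 0 under all 23. Without any 1 array the count was 0 in every contrast, and the median difference of the 33 genes was -0.016 to 0.023, beside -0.017 to 0.014 under the other alternatives. All genes past the threshold over both sexes numbered 18 with the intensity trend, 14 above the median brightness, where Stx1a was not tested, 3 with the choroid plexus covariate, 2 with the oligodendrocyte covariate and 3 to 8 without 1 array, beside 5 as reported. Syn1, near 0 throughout, turned sign over both sexes with the choroid plexus covariate (-0.012) and in some of the fits without 1 array (-0.018 to 0.027), and likewise in females (-0.014 with that covariate, -0.047 to 0.043 without 1 array). Syp over both sexes was 0.11 with the oligodendrocyte covariate and 0.03 with that of choroid plexus. In females it was 0.15 with the oligodendrocyte covariate, and in males -0.010 with the mean of all its probe sets. In females, all genes past the threshold numbered 26 with the intensity trend, 16 above the median brightness and 0 with the oligodendrocyte covariate. No paired analysis was possible because the labels give the arrays no shared replicate numbers. Background signal is not given, so whether a gene lies above it was not tested.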
